A study of Mus musculus with 4 samples.

Results

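The genes described here encode the pores of voltage-gated calcium channels, followed through the neurons of the mouse cochlea. Of 8 pore genes listed for the study (Cacna1a, Cacna1b, Cacna1c, Cacna1d, Cacna1e, Cacna1g, Cacna1h and Cacna1i), 7 were found by symbol among the 18143 genes of the count tables, and Cacna1i, a T-type pore, is not analysed here. The cells came from 4 wild-type CBA/CaJ male mice aged 9 weeks, with no transgene, drug or sort, and the 8 cochlear capsules were kept as 1 pool per mouse. The dissected tissue, spiral ganglion with limbus, sulcus and part of the organ of Corti, was dissociated in collagenase IV and then papain, each for 30 min at 37 °C. In 10x v2 droplet sequencing, a unique molecular identifier (UMI) marks the 3′ end of every captured mRNA, so counts are numbers of molecules. The authors' deposited annotation placed 6713 cells in 5 populations. They held 2384 cells of type IA, 1625 of IB, 2104 of IC and 95 of type II, besides 505 putative spiral ganglion neurons.

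A voltage-gated calcium channel is built around a single large α1 subunit that holds the voltage sensors, the gate and the selectivity filter, and the Cacna1 genes encode these subunits. P/Q-type (Cacna1a), N-type (Cacna1b) and R-type (Cacna1e) channels open at strong depolarization and feed transmitter release at nerve terminals. L-type channels (Cacna1c, Cacna1d) open at strong or moderate depolarization and couple electrical activity to contraction, secretion and gene regulation. T-type channels (Cacna1g, Cacna1h, Cacna1i) open near rest and shape firing threshold. In the cochlea, Cacna1d carries most of the current that drives release at the inner hair cell ribbon synapse. Type I spiral ganglion neurons receive the output of inner hair cells and carry sound to the brainstem, whereas the rare type II neurons contact outer hair cells.

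For each mouse, the UMIs of a population's cells were added up, making 20 sums, and a level is a gene's UMIs per 1000000 UMIs of its sum (CPM). The sums held 131668 to 546679 UMIs in type II, 717528 to 1602700 in putative neurons and 3830864 to 10156321 in the type I subtypes. Median UMIs per cell ranged from 3459 to 8923.5 over mice in putative neurons, from 7874 to 21026 in type II and from 8628 to 19884 in type I. All 5 neuronal markers of the list (such as Tubb3 and Snap25) had UMIs in every population, and the 4 type II markers (Prph, Th, Gata3, Ngfr) summed to 1399 ± 463 CPM in type II against 114 to 186 CPM in the type I subtypes. Of the satellite glia markers, Apoe, Fabp7, Sox10 and Kcnj10 summed to 5301 to 9710 CPM over mice in type II and 7222 to 8118 CPM in putative neurons, against 798 to 1185 CPM in type I. Apoe made up most of these sums, and mean Sox10 lay between 27.3 and 33.9 CPM in all 5 populations. All 4 of these markers had UMIs in each population. Between mice, 26 cell barcodes were shared, in 52 cells. All annotated cells are labelled as neurons, some of them only as putative. No population labelled as a cell type that should lack these genes was at hand to set a background for shares of cells with a UMI.

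Differences were fitted across all 13005 genes that passed a low-count filter with edgeR's quasi-likelihood test, the mouse as a block and Benjamini-Hochberg adjustment. A gene was called at an adjusted p under 0.05. Of the 7 pore genes, 6 passed the filter, and Cacna1g did not. Type II and putative neurons were each compared with the type I average, in which the log2 levels of IA, IB and IC weigh equally, and the type I subtypes with each other. All fitted values below are log2 differences ± SE with n = 4 mice. The SE was worked back from the test, as the size of the difference over the square root of its F value. The p-values set a difference against the spread that remains between sums after the mouse block. That spread is drawn towards the trend of all genes, with a median of 36.5 prior beside 12 residual degrees of freedom. The labels and the UMIs come from the same cells, and no source used here gives the labels' own rule. For that reason the p-values are not independent evidence that the populations differ.

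Cacna1a, the P/Q-type pore, had the most UMIs of the family and varied little. Its level was 56.9 ± 6.5 CPM in type IA, 60.9 ± 8.2 in type IB, 62.0 ± 6.7 in type IC, 50.9 ± 10.8 in type II and 43.2 ± 12.3 in putative neurons (SD, n = 4). In the order of levels, IC, IB, IA, type II and putative, the ranges of all neighbours overlapped. Cacna1d, the second most frequent by UMIs, was similarly even at 27.5 ± 2.4 CPM in type IA, 23.9 ± 2.2 in type IB, 26.3 ± 1.9 in type IC, 17.9 ± 9.0 in type II and 26.0 ± 2.6 in putative neurons. In its order, IA, IC, putative, IB and type II, neighbours also overlapped, while IA and type II did not. The remaining genes were sparser and held most of the contrast between populations. CPM counts captured 3′ ends, so it needs no division by length, but capture can differ between genes, and levels are therefore compared across populations within a gene.

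**Figure D1:**
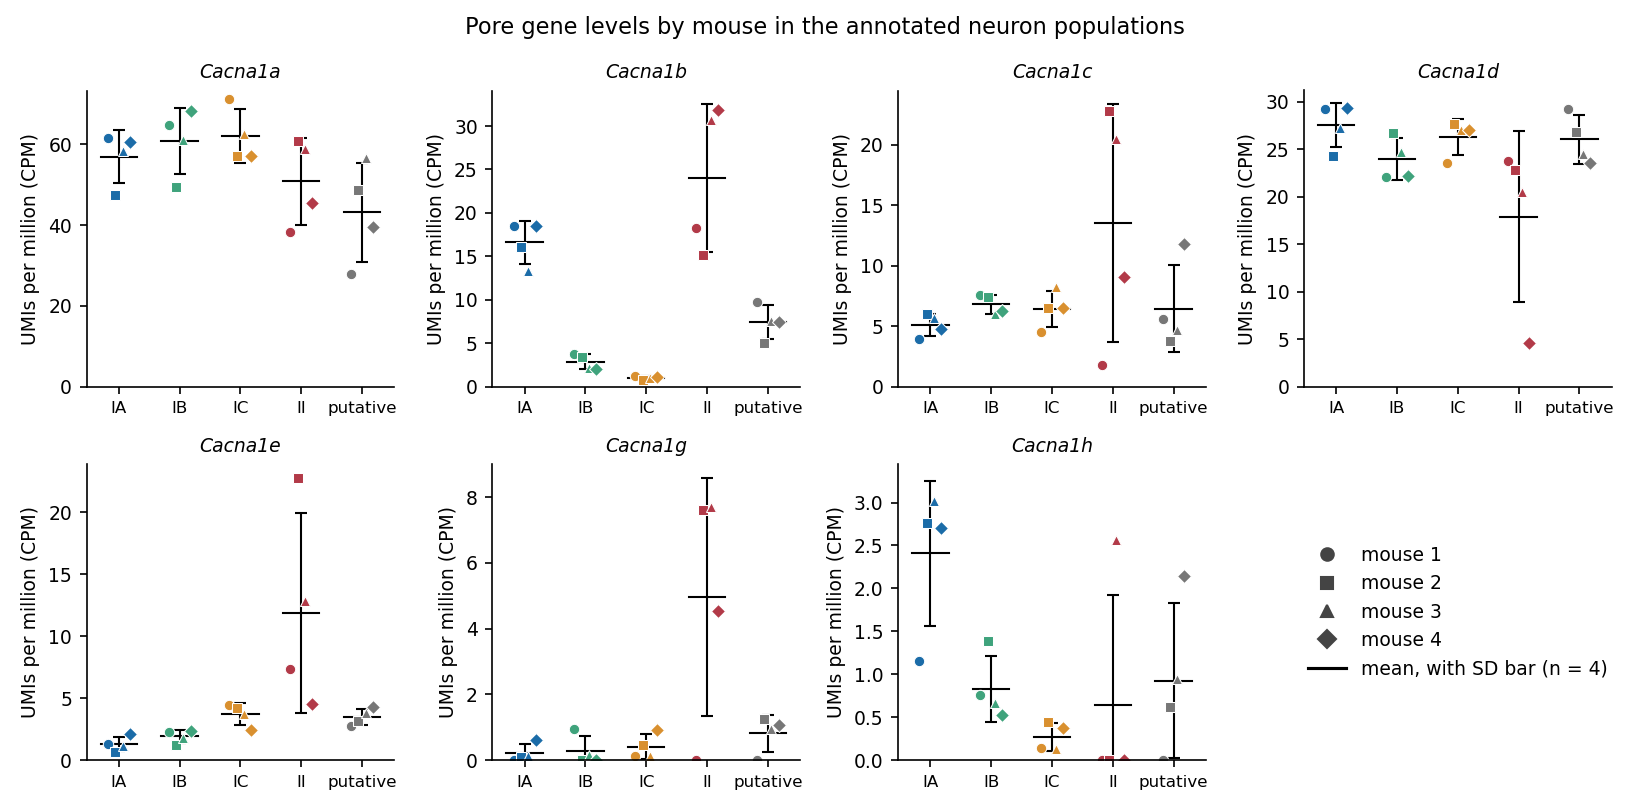
Levels of the 7 pore genes (CPM, linear axes from 0, a scale of its own for each gene) in the 5 annotated populations. Symbols are the 4 mice, horizontal lines the means and bars the SD (n = 4); Cacna1b spans 0.782 to 31.8 CPM with type IC lowest, whereas Cacna1a and Cacna1d are nearly level.

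Cacna1b, the N-type pore (GRCm38 chromosome 2, 24603887 to 24763152, minus strand), fell in steps from type IA to type IC. Type IA held 18.5, 16.0, 13.3 and 18.5 CPM in mice 1 to 4. Type IB held 3.78, 3.40, 2.15 and 2.09 CPM in the same mice. Type IC held 1.26, 0.782, 0.994 and 1.12 CPM. The 3 subtypes did not overlap, and IA stood above IB and IB above IC in every mouse. The difference was 2.49 ± 0.17 between IA and IB (adjusted p = 2.3e-17), 3.99 ± 0.19 between IA and IC (adjusted p = 1.0e-23), and 1.50 ± 0.30 between IB and IC (adjusted p = 0.00023). The IA to IC step is a 15.9-fold difference, and the pooled UMIs, 486 against 30, give a ratio of 16.0 (95% exact interval 11.1 to 24.0, counting error only). When labels were rebuilt in each mouse from the population means of the other 3, with the pore genes left out, 72.9% of cells kept the authors' label and the IA to IB difference was 1.22 (adjusted p = 8.5e-08). The IB to IC call was lost when every cell was thinned to 1 depth (1.44, adjusted p = 0.080).

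The RefSeq promoter windows of Cacna1b and Cacna1e, 250 bases before to 50 after the start on build GRCm38.p6, are shown because these genes ran in opposite directions across type I. Capitals mark GC boxes, the letters GGGCGG, searched on both strands.
Cacna1b: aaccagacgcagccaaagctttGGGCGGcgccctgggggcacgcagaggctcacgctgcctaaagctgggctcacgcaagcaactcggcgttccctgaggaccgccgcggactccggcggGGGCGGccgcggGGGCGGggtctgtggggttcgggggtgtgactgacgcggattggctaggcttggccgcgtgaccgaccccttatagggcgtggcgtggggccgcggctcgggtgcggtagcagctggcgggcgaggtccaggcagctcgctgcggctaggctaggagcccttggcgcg
Cacna1e: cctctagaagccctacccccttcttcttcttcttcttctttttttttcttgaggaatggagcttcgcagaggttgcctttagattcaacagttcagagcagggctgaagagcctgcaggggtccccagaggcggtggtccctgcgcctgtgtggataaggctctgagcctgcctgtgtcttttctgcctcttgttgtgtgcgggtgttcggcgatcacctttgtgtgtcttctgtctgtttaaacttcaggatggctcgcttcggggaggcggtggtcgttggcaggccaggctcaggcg
The Cacna1b window (chr2:24763103-24763402, minus strand) holds 3 GC boxes, 35 CpG dinucleotides and 72.3% GC, against a median GC of 52.7% over 32851 RefSeq promoters. The Cacna1e window (chr1:154725871-154726170, minus strand) holds 0 GC boxes, 11 CpG dinucleotides and 55.3% GC, and lies inside the longer GENCODE gene model (chromosome 1, 154390731 to 154884501). A GC box occurs in 35.7% of all promoters of that length. The TATA box letters TATAAA, present in 13.6% of promoters, were in neither window on either strand. The same held for a RUNX factor core, TGTGGT, present in 16.8%, and for a homeodomain core, TAATTA, present in 5.29%. A match is a description of the letters, since 3′ counts do not show which start site was used. Windows were found for 5 of the 8 listed genes.

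Cacna1h, a T-type pore (chromosome 17, 25374285 to 25433783, minus strand), followed the same order across type I at a much lower count. Type IA held 1.16, 2.76, 3.02 and 2.71 CPM in mice 1 to 4, from 73 UMIs in all. Type IB held 0.755, 1.39, 0.663 and 0.522 CPM, from 19 UMIs. Type IC held 0.140, 0.447, 0.124 and 0.373 CPM, from 8 UMIs. IA was above IB and IB above IC in each mouse, although the low value of mouse 1 in IA lay within the range of IB. In mouse 4, IB and IC held 2 UMIs each, so their order there comes only from the size of the sums. Cacna1h was higher in IA than IB by 1.44 ± 0.35 (adjusted p = 0.0022) and higher in IA than IC by 3.05 ± 0.42 (adjusted p = 3.9e-08). The IB to IC difference of 1.61 ± 0.56 missed the threshold (adjusted p = 0.0502), and passed it with the rebuilt labels (1.60, adjusted p = 0.0071), without mouse 4 (1.85, adjusted p = 0.048) and without Prph-negative type II cells (1.61, adjusted p = 0.045). The IA to IB call was lost without mouse 3 (1.18, adjusted p = 0.074) and with the rebuilt labels (0.88, adjusted p = 0.059).

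Cacna1e, the R-type pore, ran the other way. Type IC held 4.48, 4.25, 3.73 and 2.42 CPM in mice 1 to 4. Type IB held 2.27, 1.24, 1.82 and 2.35 CPM. Type IA held 1.30, 0.689, 1.13 and 2.08 CPM. The IC values lay above all IB and IA values, and IB exceeded IA in 4 of 4 mice although their ranges overlapped. Cacna1e was lower in IA than IC by 1.65 ± 0.28 on the log2 scale (log2 difference -1.65, adjusted p = 4.1e-06) and lower in IB than IC (-1.02 ± 0.28, adjusted p = 0.0077). The IA to IB difference of -0.63 ± 0.35 was not called (adjusted p = 0.26). The IB to IC call was lost without mouse 2 (-0.75, adjusted p = 0.16), without mouse 3 (-1.03, adjusted p = 0.052) and without the mouse block (-0.99, adjusted p = 0.052), and had an adjusted p of 0.064 in DESeq2.

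The other tested pore genes did not pass the threshold within type I. Cacna1a differed by -0.09 ± 0.07 between IA and IB, by -0.12 ± 0.07 between IA and IC and by -0.04 ± 0.07 between IB and IC, with adjusted p from 0.17 to 0.83. Cacna1d differed by 0.18 ± 0.09, 0.07 ± 0.08 and -0.11 ± 0.09 in the same order, with adjusted p from 0.21 to 0.61. Cacna1c, the L-type pore of heart and smooth muscle that is also widespread in neurons, stood at 5.09 ± 0.94 CPM in IA, 6.80 ± 0.80 in IB and 6.42 ± 1.52 in IC. It was lower in IA than in IB and than in IC in 4 of 4 mice, by -0.39 ± 0.20 (adjusted p = 0.20) and -0.29 ± 0.19 (adjusted p = 0.25). These Cacna1c ranges overlapped. With thinned cells the Cacna1c difference between IA and IC was -0.79 and passed (adjusted p = 0.044). Cacna1d passed between IA and IB with the rebuilt labels (0.34, adjusted p = 0.0057) and without mouse 2 (0.31, adjusted p = 0.0498).

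Counted against all genes, 2 of 6 tested pore genes were called between IA and IB, both higher in IA (Cacna1b, Cacna1h), where 15.6% of the 13005 genes were called (7.4% higher in IA and 8.19% lower). Between IA and IC, 3 of 6 were called, 2 higher in IA and 1 lower (Cacna1e), where 32.3% of all genes were called (16.3% higher, 16% lower). Between IB and IC, 2 of 6 were called, Cacna1b higher and Cacna1e lower in IB, where 11.8% of all genes were called (6.37% higher, 5.47% lower). With 6 genes tested, these counts were not set apart from the background by any test. The median over the 6 genes was 0.05, -0.03 and 0.03 in the 3 comparisons, beside -0.0044, -0.0068 and -0.0028 over all genes.

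**Figure D2:**
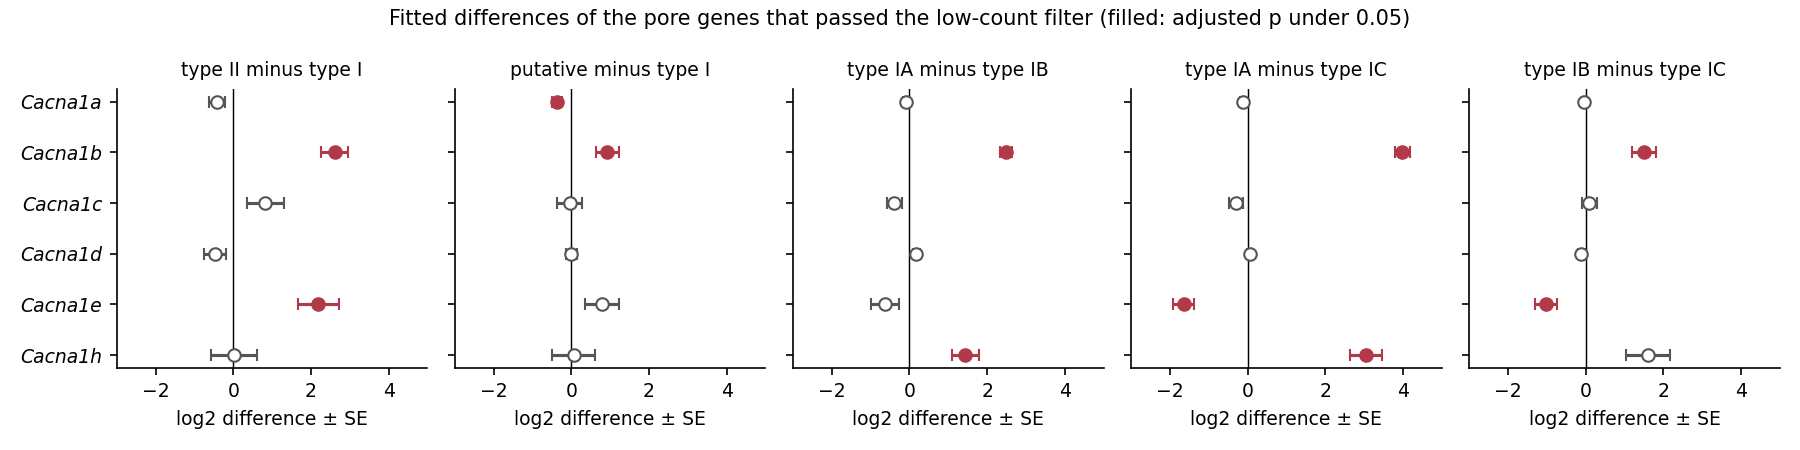
Log2 differences ± SE of the 6 pore genes that passed the low-count filter, in each of the 5 comparisons (linear log2 axis; filled red, adjusted p under 0.05). Cacna1b is filled in every panel, reaching 3.99 between type IA and type IC, while Cacna1d is filled in none.

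In type II neurons, Cacna1b and Cacna1e were higher than in type I. Cacna1b held 18.3, 15.2, 30.7 and 31.8 CPM in mice 1 to 4, from 10, 2, 12 and 7 UMIs. Each of these values exceeded every IB and IC value, whereas type II was above type IA in 2 of 4 mice and the ranges of II and IA overlapped. In mice 2 and 4, 1 UMI alone equals 7.59 and 4.54 CPM, already above every IB and IC value. The difference from the type I mean was 2.62 ± 0.34 (adjusted p = 2.3e-08), a 6.13-fold difference on the log scale that weights the 3 subtypes equally. Pooled over all type I cells the ratio was 3.36 (95% exact interval 2.26 to 4.83). Cacna1b stayed called in each of the 12 alternative analyses of this comparison that tested it (2.32 to 3.03).

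Cacna1e held 7.32, 22.8, 12.8 and 4.54 CPM in type II, from 4, 3, 5 and 1 UMIs. All 4 values lay above every type I value and above every putative value, the highest of which was 4.48 in IC and 4.28 in putative neurons. In type II, 1 UMI equals 7.59 CPM in mouse 2 and 4.54 CPM in mouse 4. Any UMI in those mice would therefore lie above these values, and the lack of overlap there reflects depth. The difference from type I was 2.20 ± 0.54 (adjusted p = 0.0014). It rested on 13 UMIs in 9 cells, and 1 cell held 23.1% of them. The call was lost when only type II cells with a Prph UMI were kept (1.85, adjusted p = 0.079).

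Cacna1g, a T-type pore (chromosome 11, 94408391 to 94474198, minus strand), had 5 UMIs in 4 type II cells and 22 UMIs in all type I cells. In type II mice 1 to 4 it held 0, 7.59, 7.68 and 4.54 CPM, from 0, 1, 3 and 1 UMIs. Mouse 1, with 0, had the deepest type II sum (546679 UMIs), and 1 cell held 40% of the 5 Cacna1g UMIs. Cacna1g UMIs in type I gave means of 0.212 CPM in IA, 0.277 in IB and 0.411 in IC. Pooled, the ratio of type II to type I was 14.3 (95% exact interval 4.22 to 38.6, counting error only). All 5 UMIs lay in the 58 type II cells with a Prph UMI, where the level was 8.31 CPM, and 0 in the 37 without. It was not tested in the main analysis. The edgeR test without the low-count filter gave 3.71 ± 1.10 (adjusted p = 0.0059) and DESeq2 4.04 ± 0.95 (adjusted p = 0.00024).

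The remaining pore genes were not called in type II. Cacna1a held 38.4, 60.8, 58.9 and 45.4 CPM, and its difference from type I was -0.41 ± 0.20 (adjusted p = 0.15). Cacna1d held 23.8, 22.8, 20.5 and 4.54 CPM, the last of these from 1 UMI, and its difference was -0.47 ± 0.28 (adjusted p = 0.26). Cacna1c held 1.83, 22.8, 20.5 and 9.09 CPM from 14 UMIs, with mouse 1 low and mice 2 and 3 high. Its difference of 0.83 ± 0.48 had an adjusted p of 0.23, and 0.038 without mouse 1 (1.36). Cacna1h had 1 UMI in type II, in mouse 3, and the 3 counts that a 0 allows correspond to 5.49, 22.8 and 13.6 CPM in mice 1, 2 and 4. Over the 1288798 UMIs of all type II cells, 3 counts equal 2.33 CPM, a bound that would hold only for a count of 0. With 1 UMI seen, the pooled ratio of type II to type I was 0.628 (95% exact interval 0.0158 to 3.58, counting error only). The fitted difference of Cacna1h from type I was 0.01 ± 0.59, and ran from -5.27 to 0.47 over 11 alternative analyses. With 1 UMI, that difference is left undetermined, and the SE does not show how widely. In all, 2 of 6 were called, both higher, where 23.4% of all genes were called (11.9% higher in type II and 11.5% lower).

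Hair cells use Cacna1d, and part of the organ of Corti was in the tissue, so hair cell markers were read beside it. The 6 markers with a row summed to 40.0 to 57.3 CPM over the population means, of which Myo6, which is not restricted to hair cells, gave 37.9 to 53.3 CPM. Otof stood at 4.32 CPM in type II, from 4 UMIs in 3 mice, against 0.794 to 0.883 CPM in the type I subtypes and 1.35 CPM in putative neurons. Slc17a8 lay between 0.592 and 1.20 CPM in all 5 populations. Myo7a, Pou4f3 and Ocm were at 0 in type II and at or under 1.12 CPM elsewhere. The part of hair cell RNA in the Cacna1d level was not tested. Among type II cells, Cacna1d stood at 18.3 CPM with a Prph UMI and 20.4 CPM without. The same split gave 33.2 against 16.0 CPM for Cacna1b and 8.31 against 11.6 CPM for Cacna1e. Type II cells with 3 or more Fabp7 UMIs, 38 of 95, held Cacna1b at 19.4 CPM and Cacna1e at 8.33 CPM, against 25.8 and 10.8 CPM in the other 57 cells. Leaving out all cells with 3 or more Fabp7 UMIs left both type II calls in place.

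Putative neurons, which the authors set apart from the named types, showed small differences that did not hold firmly. Cacna1a held 27.9, 48.7, 56.6 and 39.6 CPM in mice 1 to 4. These values lay below all IC values and below the type I average in 4 of 4 mice, although they overlapped with IA and IB. Against IA alone they were lower in 3 of 4 mice. The difference was -0.37 ± 0.12 (adjusted p = 0.018). Among satellite glia markers, Apoe (7003 against 907 to 1000 CPM in the type I means) and Fabp7 (562 against 13.8 to 16.2 CPM) were higher. Sox10 (33.9 against 27.3 to 30.3 CPM) and Kcnj10 (31.1 against 29.0 to 36.4 CPM) were close to type I. The part of glial RNA in the Cacna1a difference was not tested. The 96 putative cells with 3 or more Fabp7 UMIs held 4 Cacna1a UMIs (10.7 CPM) and the other 409 held 191 (48.5 CPM). Without such cells the difference was -0.30 (adjusted p = 0.10). The call was also lost without mouse 1 (-0.23, adjusted p = 0.18), without mouse 4 (-0.30, adjusted p = 0.11) and with cells thinned to 1 depth (-0.25, adjusted p = 0.52). The direction turned to 0.66 (adjusted p = 3.6e-07) with the rebuilt labels. The rebuilt putative group held 277 of the authors' putative cells, beside 248 of type IA, 133 of IB, 200 of IC and 10 of type II. Its values are therefore mostly those of cells that the authors gave other labels. Only 54.9% of the putative cells kept that label in the rebuilding, and all differences for putative neurons rest on the authors' label.

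Cacna1b in putative neurons held 9.76, 4.99, 7.54 and 7.49 CPM, between IA and IB in every mouse and without overlap with either. It was called higher than the mean log2 level of type I by 0.93 ± 0.30 (adjusted p = 0.019), but on the linear scale its mean of 7.44 CPM was close to the mean of 6.83 CPM over the 3 subtypes, and the pooled ratio was 0.972 (95% exact interval 0.650 to 1.4). The call was lost without mouse 1 (0.89, adjusted p = 0.059), mouse 3 (0.82, adjusted p = 0.10) or mouse 4 (0.90, adjusted p = 0.074), and with thinned cells (0.37, adjusted p = 0.84). Cacna1e held 2.79, 3.12, 3.77 and 4.28 CPM, above every IA and IB value and overlapping IC, with a difference from type I of 0.79 ± 0.44 (adjusted p = 0.21). Cacna1c, Cacna1d and Cacna1h differed by -0.04 ± 0.33, 0.00 ± 0.15 and 0.06 ± 0.55. The 2 calls among 6, 1 higher and 1 lower, compare with 23.3% of all genes called (14.2% higher in putative neurons and 9.13% lower).

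By channel class, the summed level of all pore genes was 110.1 ± 9.5 CPM in type IA, 97.6 ± 5.9 in IB, 100.1 ± 4.6 in IC, 123.8 ± 33.8 in type II and 88.3 ± 9.8 in putative neurons. The ranges of these totals overlapped between all 5 populations. N-type UMIs were 15.1 ± 1.9% of pore UMIs in IA, 2.94 ± 0.93% in IB and 1.04 ± 0.18% in IC, and 20.6 ± 8.9% in type II. P/Q-type UMIs were 51.6 ± 2.3% in IA, below the 62.3 ± 5.1% of IB and 61.8 ± 4.0% of IC. The L-type share, most of it Cacna1d, was 29.7 ± 1.2%, 31.7 ± 4.6% and 32.8 ± 4.1% in IA, IB and IC, and 24.7 ± 7.5% in type II. R-type UMIs made 9.01 ± 4.36% of the total in type II against 1.16 to 3.70% in the type I subtypes. Shares within a total are bound to each other, so a higher N-type share lowers the others.

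**Figure D3:**
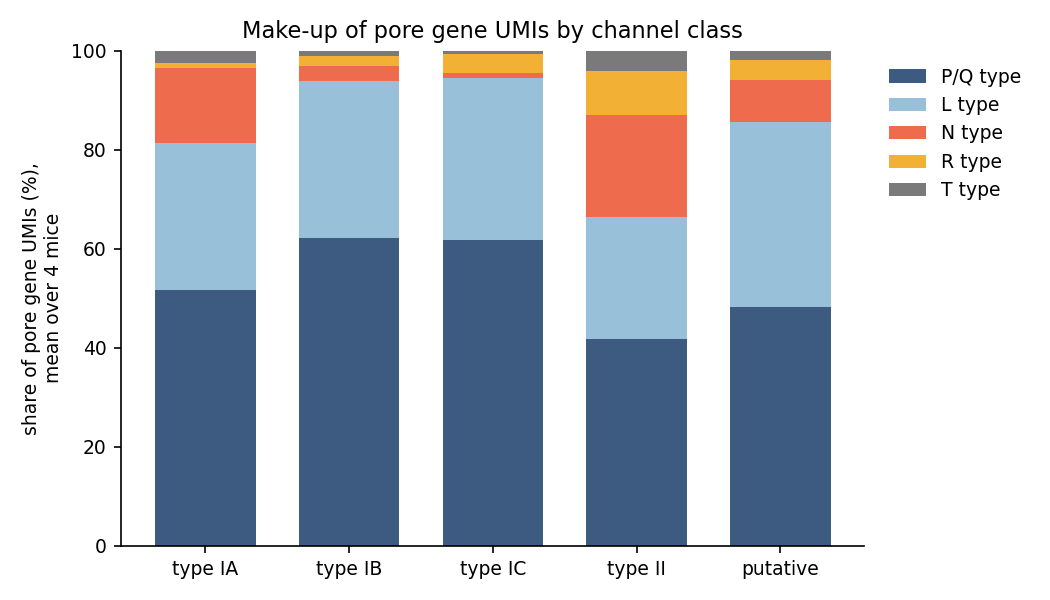
Share of pore gene UMIs (%) that each channel class held, as the mean over 4 mice in each population (stacked bars sum to 100%). N-type Cacna1b makes 15.1% in type IA, 1.04% in type IC and 20.6% in type II, and P/Q-type Cacna1a is the largest class in every bar.

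Shares of cells with a UMI were read after thinning every cell to 4215 UMIs, which left out 671 shallower cells (205 type IA, 98 IB, 126 IC, 5 II and 237 putative). Cacna1b was then seen in 7.07 ± 0.94% of type IA cells, 1.20 ± 0.72% of IB cells, 0.525 ± 0.324% of IC cells, 10.7 ± 8.3% of type II cells and 2.35 ± 0.84% of putative cells. IA did not overlap IB or IC. Cacna1a was seen in 22.6 ± 1.9%, 23.2 ± 2.7% and 25.0 ± 3.7% of IA, IB and IC cells, 25.5 ± 9.6% of type II and 19.0 ± 6.6% of putative cells. Before thinning, the shares of Cacna1a were 49.8 ± 8.5%, 52.7 ± 8.5%, 55.4 ± 10.4%, 46.3 ± 5.4% and 28.6 ± 5.0% in that order, and those of Cacna1b 17.8 ± 3.8%, 3.79 ± 1.79%, 1.44 ± 0.54%, 24.8 ± 9.3% and 5.91 ± 1.89%. Putative cells, lowest for Cacna1a before thinning, also had the lowest median UMIs per cell. Thinned shares of Cacna1d ran from 7.47 ± 4.07% in putative cells to 11.2 ± 2.2% in IC cells, with overlapping ranges. Cacna1h was seen in 0 of 90 thinned type II cells, which allows a share of up to 3.33%, and Cacna1g in 0 of 268 putative cells, which allows up to 1.12%.

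**Figure D4:**
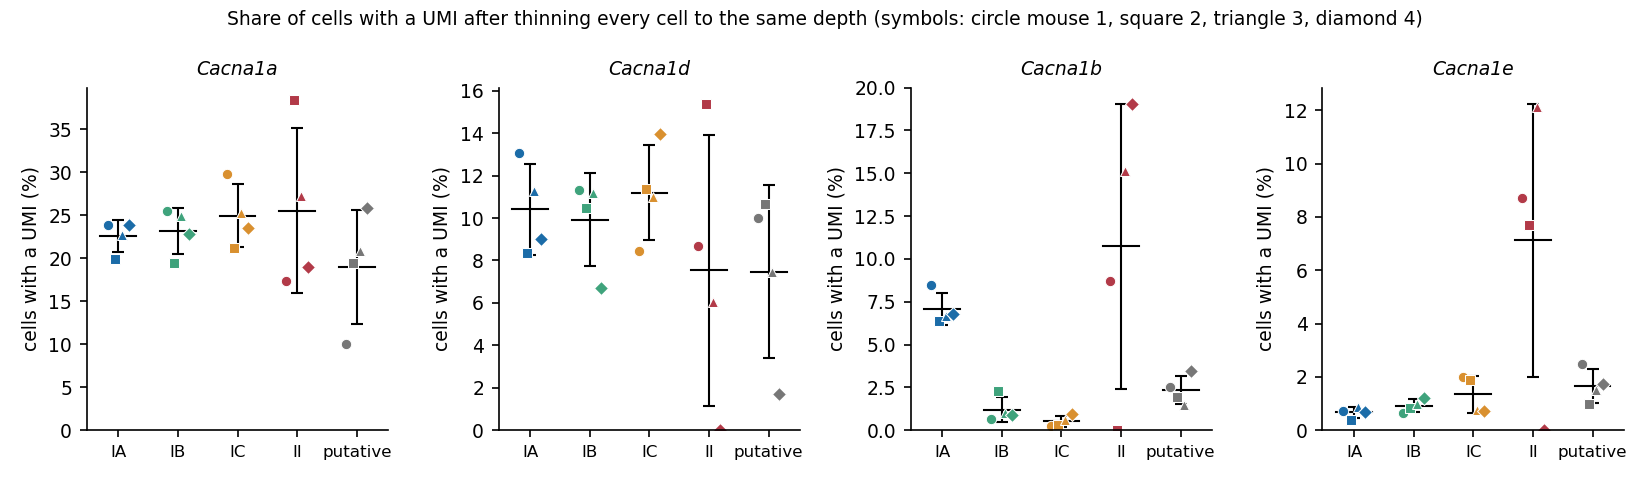
Share of cells with at least 1 UMI (%) of 4 pore genes after thinning each cell to 4215 UMIs, by population. Symbols are mice, lines means and bars SD (n = 4); Cacna1b separates type IA, at 6.37 to 8.45%, from types IB and IC, while Cacna1a and Cacna1d overlap in all populations.

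Few thinned cells showed more than 1 pore gene. On average 63.0 ± 3.8% of thinned IA cells held none, 30.7 ± 3.5% held 1 and 6.36 ± 1.37% held 2 or more. The mean number of pore genes seen per thinned cell was 0.438 ± 0.048 in IA, 0.389 ± 0.038 in IB, 0.414 ± 0.019 in IC, 0.597 ± 0.225 in type II and 0.350 ± 0.064 in putative cells. In unthinned IA cells, 413 held Cacna1b, and 230 of these also held Cacna1a, where the product of their shares gives 205. The same cells held Cacna1d in 152 cases, where the product gives 117. Deeper cells show more of every gene, so these counts describe detection in cells of unlike depth and were not tested.

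The genes whose pattern over the 20 sums was most like that of a pore gene were taken from 8706 genes with a mean of at least 10 CPM, by Pearson's r of log2 CPM. For Cacna1b these were Dok5 (0.94), Gnao1 (0.93) and Cdk15 (0.92), with r of 0.98, 0.96 and 0.95 over the 12 type I sums alone. Gnao1 encodes a G protein α subunit abundant in neurons. Its level was 39.6 CPM in IA, 13.8 in IB, 9.95 in IC and 50.8 in type II. For Cacna1h they were Stxbp2 (0.85), Akap8l (0.85) and Ghr (0.84), with 0.90, 0.83 and 0.89 within type I. For Cacna1e they were Shisa2 (0.91), Mgll (0.88) and Epha7 (0.88), with 0.86, 0.66 and 0.78 within type I. For Cacna1a they were Cic (0.82), L3mbtl2 (0.81) and Bclaf1 (0.80), which fell to between -0.07 and 0.30 within type I. For Cacna1c they were Nfyb (0.82), Cbx1 (0.82) and Grk6 (0.81), with -0.05 to 0.36 within type I. For Cacna1d they were Rnf26, Inpp5f and Fam155a (each 0.97), but without the type II sum of mouse 4, which held 1 Cacna1d UMI, r was 0.62, 0.82 and 0.64. The 20 sums share mice and depth, and shallow sums carry more counting noise, so these values are a description. Between pore genes, r ran from -0.47 (Cacna1e with Cacna1h) to 0.45 (Cacna1c with Cacna1e).

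Calcium channel partners shape how many pores reach the membrane and how they open, and 36 of 41 listed genes were tested. Genes named here are, in each comparison, the 3 called partners with the largest differences and the same direction in every mouse. Others (Cacna2d1, Cacna2d3, Kcnma1, Kcnn1, Rrad, and Rem2 in putative neurons) were named after their values were seen. In type II, 11 partners rose and 12 fell against type I (background 11.9% and 11.5%), with a median of -0.07 against -0.05 over all genes. The α2δ subunit gene Cacna2d2, whose product promotes surface delivery of high-voltage channels, held 65.5 ± 28.2 CPM in type II against 8.91 ± 1.57 in IA, 2.25 ± 0.86 in IB and 3.47 ± 0.90 in IC. Its difference from type I was 3.67 ± 0.30 (adjusted p = 1.9e-14). The γ family gene Cacng5, also an AMPA receptor auxiliary subunit, rose by 4.11 ± 0.40 (adjusted p = 8.9e-12), from 1.95 to 25.4 CPM. Kcnn2, a small-conductance potassium channel opened by calcium entry, fell by 2.89 ± 0.56 (adjusted p = 6.3e-05), with 2.23 ± 1.88 CPM in type II from 3 UMIs. The Kcnn2 difference was -1.81 with the rebuilt labels. All 3 tested genes of that potassium channel class were lower in type II (Kcnma1, Kcnn1, Kcnn2).

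Within type I, Cacna2d2 and Cacna2d1 were higher in IA than in IB and than in IC. The other tested α2δ gene, Cacna2d3, had higher levels, at 53.6 CPM in IA, 59.9 in IB and 58.5 in IC. It was not called, at -0.15 ± 0.06 between IA and IB and -0.11 ± 0.06 between IA and IC. Cacna2d2 differed by 1.92 ± 0.24 from IB (adjusted p = 9.1e-09) and by 1.31 ± 0.20 from IC (adjusted p = 4.4e-07), and Cacna2d1 by 0.87 ± 0.17 and 1.02 ± 0.16. Nalcn, the sodium leak channel that resembles these pores in structure, was lower in IA, at 3.26 ± 0.84 CPM against 15.0 ± 2.1 in IB and 22.1 ± 1.0 in IC. The difference of IA from IC was -2.71 ± 0.14 (adjusted p = 7.4e-23), that of IA from IB -2.15 ± 0.16 and that of IB from IC -0.56 ± 0.11 (adjusted p = 8.0e-05). Rem2, an RGK protein that inhibits high-voltage calcium channels, was lower in IA than in IB by -2.72 ± 0.38 and than in IC by -2.56 ± 0.37 on the log2 scale, with 13 UMIs in IA. Cacng5 was lower in IA than in IC (-2.08 ± 0.34) and in IB than in IC (-1.08 ± 0.32), and Cabp7, a calmodulin-like gene, was lower in IB than in IC (-1.50 ± 0.38). The IB to IC call of Cacng5 was lost without mouse 1 (-0.77, adjusted p = 0.22), without mouse 3 (-1.08, adjusted p = 0.054), without the mouse block (-1.09, adjusted p = 0.11) and in DESeq2 (-1.10, adjusted p = 0.076). That of Cabp7 was lost without mouse 2 (-1.35, adjusted p = 0.077). With the rebuilt labels, the IA to IB difference was 1.09 for Cacna2d2 and -1.38 for Nalcn, and the IB to IC difference of Nalcn was -0.98. Of the 36 partners, 3 were higher and 7 lower in IA than in IB (background 7.4% and 8.19%), 5 higher and 15 lower in IA than in IC (background 16.3% and 16%), and 2 higher and 4 lower in IB than in IC (background 6.37% and 5.47%). Their medians were -0.12, -0.19 and -0.03, beside -0.0044, -0.0068 and -0.0028 over all genes.

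In putative neurons, 7 partners were higher and 9 lower than in type I (background 14.2% and 9.13%), with a median of -0.15 against -0.01 over all genes. Of 4 tested RGK genes 3 were higher (Gem, Rem1, Rrad). The other, Rem2, stood at 0.236 CPM against 2.18 CPM in type I and was below the type I average in 4 of 4 mice. Its difference of -2.58 ± 1.02 was not called (adjusted p = 0.059). Gem, whose product keeps high-voltage channels off the surface, held 27.8 ± 2.2 CPM against 5.18 to 6.84 CPM in the type I means. It held 14.9 ± 2.3 CPM in type II. The difference of putative neurons from type I was 2.18 ± 0.19 (adjusted p = 9.2e-14). Rem1 differed by 1.78 ± 0.52 (adjusted p = 0.0090) from 14 UMIs, and Cacng4 by 1.98 ± 0.56 (adjusted p = 0.0067) from 15 UMIs. The Rem1 call was lost without mouse 3 (1.44, adjusted p = 0.10) and with the rebuilt labels (1.30, adjusted p = 0.079). The Cacng4 call was lost without mouse 2 (1.4, adjusted p = 0.26), with thinned cells (2.08, adjusted p = 0.13) and with the rebuilt labels (0.86, adjusted p = 0.35). The 3 fibroblast markers of the list, all with UMIs, summed to 178 to 429 CPM over mice in putative neurons, against 66.8 to 106 CPM in type I and 73.2 to 205 CPM in type II. The 4 smooth muscle and pericyte markers summed to 19.8 to 118 CPM in putative neurons against 19.2 to 42.3 CPM in type I, and the 3 endothelial markers to 26.4 to 59.9 against 20.5 to 32.1 CPM. Their part in the values of putative neurons was not tested.

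**Figure D5:**
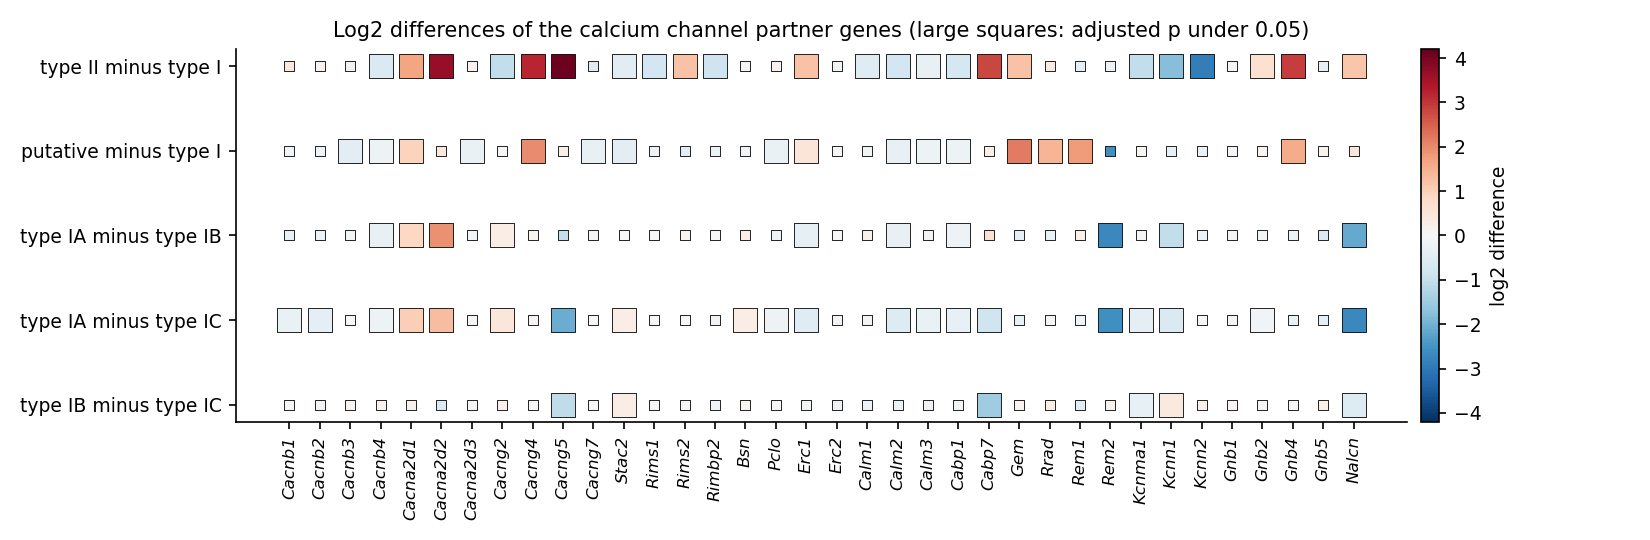
Log2 differences (colour, red higher and blue lower in the first-named population) of the 36 tested calcium channel partner genes in the 5 comparisons. Large squares mark adjusted p under 0.05; the deepest red is Cacng5 in type II, at 4.11, and the most calls, 23 of 36, fall in that row.

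The annotation places Cacna1a at chromosome 8, 84388440 to 84640246 (plus strand), Cacna1c at chromosome 6, 118587240 to 119196418 (minus strand) and Cacna1d at chromosome 14, 30039939 to 30491455 (minus strand), all on GRCm38. Chdh, on the opposite strand, reaches within 2 kb of the 3′ end of Cacna1d, and Tpsg1 likewise near that of Cacna1h. The 10x chemistry marks strand, but no source used here says whether the authors' counting used it, so reads of such pairs cannot be told apart with certainty. Dcp1a and Dcp1b overlap Cacna1d and Cacna1c away from their 3′ ends, and Gm16183 is antisense to Cacna1a.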

How the data were processed

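UMI counts per gene and cell came from 1 deposited table per mouse, and population labels from the authors' deposited cell annotation, used as it stands. Cell Ranger 2.0.1, Seurat 1.4 and build mm10 are named per the submitters' processing notes. No source used here gives the filters on cells or any removal of doublets, and no doublet caller was run. The files held 18143 genes, 18066 with a UMI, and the libraries 15151343 to 27309045 UMIs.

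Counts were summed per mouse and population and fitted in R 4.3.3 by the two-sided quasi-likelihood test of edgeR 4.0.16, after filterByExpr and TMM scaling. All 5 populations were in 1 fit with 12 residual degrees of freedom and the mouse as a block, since each mouse gave every population. DESeq2 1.42.0 was an alternative. Scripts were tested on simulated data that held no mouse effect and changed only genes with higher counts. Sparse genes such as Cacna1b, Cacna1e and Cacna1h lay outside that set. Thinning drew 4215 UMIs per cell, percentile 10 of depth. The likeness rule used log2 CPM with a prior count of 2. Intervals and floors cover counting error only. Promoter letters are from RefSeq. A planned comparison of protein sequences was not run. A gene of the satellite glia list is not reported here. The members and gene lists were chosen with earlier results of these data known.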

Additional observations from a re-analysis of the deposited data

Results flagged for a closer look

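Of 35 sets of 4 mice (7 pore genes in 5 populations), 4 had a mouse far from the other 3 by Dixon's test at the 95% level, where chance gives about 1 in 20. In type IC, Cacna1d of mouse 1 was low at 23.5 CPM, against 27.0 to 27.6 CPM in the other mice. In type II, Cacna1d of mouse 4 was low at 4.54 CPM, from 1 UMI, against 20.5 to 23.8 CPM. In type IA, Cacna1h of mouse 1 was low at 1.16 CPM, from 8 UMIs, against 2.71 to 3.02 CPM. In type II, Cacna1h of mouse 3 was the only value above 0, at 2.56 CPM from 1 UMI. With the other 3 mice tied at 0, any value above 0 sets that mouse apart in Dixon's test, so this set says nothing beyond its 1 UMI.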

How the results depend on the processing

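Of 355 alternative values for the pore gene differences, 328 kept their side of the threshold (27 of them, never past it, changed sign), 17 dropped below it, 9 passed it and 1 reversed. That one was Cacna1a in the rebuilt putative group (0.66). The number of pore genes called ranged, leaving out each mouse in turn, from 2 to 4 for type II against type I, 0 to 2 for putative against type I, 1 to 3 for IA against IB and 1 to 3 for IB against IC, and was 3 throughout for IA against IC. The 0 counts of edgeR came without mouse 1 or mouse 4, where 2 pore genes had an unadjusted p under 0.05, while DESeq2 on all mice called 2. With cells thinned to 1 depth, 4 pore genes could be tested and 1, 0, 1, 2 and 0 were called in the order type II, putative, IA against IB, IA against IC and IB against IC. The 2 between IA and IC were Cacna1b and Cacna1c, the latter called in no other analysis of that comparison, and Cacna1e and Cacna1h could not be tested there. The 0 counts held 0 genes for putative neurons and 1 for IB against IC at an unadjusted p under 0.05. With 15 cells in every sum only Cacna1a could be tested, and 0 were called in all 5 comparisons, also unadjusted. Without cells rich in Fabp7, 1 was called in putative neurons, and without Prph-negative cells 1 in type II. Rebuilt labels gave 4 calls in the rebuilt putative group, among them Cacna1e (1.56) and Cacna1d (0.42). Most cells of that group had another label from the authors. Without the replicate block, 1 pore gene was called between IB and IC, as in DESeq2, and no other count of pore genes changed. Between IA and IC, the calls of Cacna1b, Cacna1e and Cacna1h held in every alternative that tested them. Subsets of type II and putative cells, and likeness within type I, were chosen after seeing the data. Depth limits type II most: 3 counts equal 2.33 CPM over all its cells.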
